A study of Mus musculus with 6 samples.

Results

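Chromatin accessibility was examined at 10 genes that encode transcriptional regulators of smooth muscle: Srf, Myocd, Mef2a, Mef2c, Mef2d, Foxf1, Klf2, Klf4, Tead1 and Nkx2-3. The genes were taken as a list, and every accessible region that overlapped one of their gene bodies or the 50 kb on either side was kept, which gave 112 of the 66679 regions found in the whole series. The data were ATAC-seq peaks, places where the Tn5 transposase cut open chromatin, from primary oviductal smooth muscle cells taken on day 2 of pregnancy. The 3 control libraries came from mice labelled WT and the other 3 from mice with a conditional knockout of Pbrm1 (Pbrm1 cKO). Both groups were 8 to 12 weeks old and were mated with stud males. The labels do not name the Cre line or the floxed allele of these mice. Each library was made from 50000 cells that had been released from digested oviduct, filtered and plated for a few hours, so the cells were enriched by handling and not sorted. Separate animals per library are not spelled out in the labels, so the p-values measure the spread between these libraries.

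Serum response factor (SRF) binds CArG boxes in contractile genes, and myocardin, encoded by Myocd, is its smooth muscle coactivator. The MEF2 factors bind AT-rich sites and respond to calcium signaling, while TEAD1 reads out the Hippo pathway together with YAP and TAZ. FOXF1 and NKX2-3 pattern visceral mesoderm, and the Krüppel-like factors KLF2 and KLF4 are known for effects on vascular and dedifferentiated smooth muscle. Polybromo-1, the protein of Pbrm1, is a subunit of a SWI/SNF complex that moves nucleosomes.

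No read counts were used here, because the files are peak lists. Regions were merged from 2 lists, one per genotype, that each hold the peaks passing an irreproducible discovery rate (IDR) filter across the libraries of that genotype. Within each library every region was ranked by its best −log10 p-value in that library's own relaxed list, so that rank 1 is the strongest of 66679 regions. A region with no entry received the last rank. A region held by 1 list only was admitted through that genotype, which favours a better rank there. A rank score, log2 of 66679 divided by the rank, was compared between genotypes, and a difference of 1 means that a rank lay 2-fold nearer the top. The numbers of Tn5 cut tags at the summit were worked back from the deposited fold and p-value and are quoted as the signal behind a rank. They do not separate sequencing depth from enrichment. The median over regions of the 10 genes was 30, 26.5 and 17 tags in WT libraries 1 to 3 and 33, 27.5 and 30 tags in Pbrm1 cKO libraries 1 to 3. WT library 3 thus had the lowest median of tags, and its median fold over all entries, 3.605, was also the lowest. It had an entry at 103 of the 112 regions, against 108 to 112 in the others.

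Marker promoters were open for several cell types. All 5 smooth muscle markers (Acta2, Myh11, Cnn1, Tagln and Des) had a promoter region. The best-ranked one of each gene had ranks from 14049 to 57388 over the 6 libraries. Of 6 epithelial markers only Foxj1 had a promoter region, ranked 3812 to 5585 in WT and 2715 to 7249 in Pbrm1 cKO. Epcam, Cdh1, Krt8, Pax8 and Ovgp1 had none. All 3 endothelial markers (Pecam1, Cdh5 and Kdr), all 3 fibroblast markers (Pdgfra, Dcn and Col1a1) and 1 of 3 immune markers (Cd68) had one. No marker promoter passed the adjusted threshold. The 7 promoter regions of the fibroblast markers all had positive differences, with a median of 0.29. Of the 7 of the smooth muscle markers 2 were positive and 5 negative, with a median of −0.18, and the part of cell makeup in the results was not tested. In bulk libraries, fewer cells with an open site and less opening in each cell cannot be told apart. The Pbrm1 promoter ranked 19394, 10526 and 19166 in WT and 12415, 12332 and 22222 in Pbrm1 cKO, which says nothing of the deletion, since peak lists do not show missing exons.

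Of the 10 genes, 8 had a region within 1 kb of an annotated start, with 15 promoter regions among them. Promoters of other genes in the windows made up 11 more, and 86 regions were distal. By annotation, 49 of the distal regions lay in introns, 8 touched exons and 29 were intergenic. The median of the mean ranks was 20696 for the 15 promoters, against 18934 for the 21555 promoter regions of the series. The distal regions had a median mean rank of 38072, against 40369.5 for all 45124 distal regions.

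**Figure D1:**
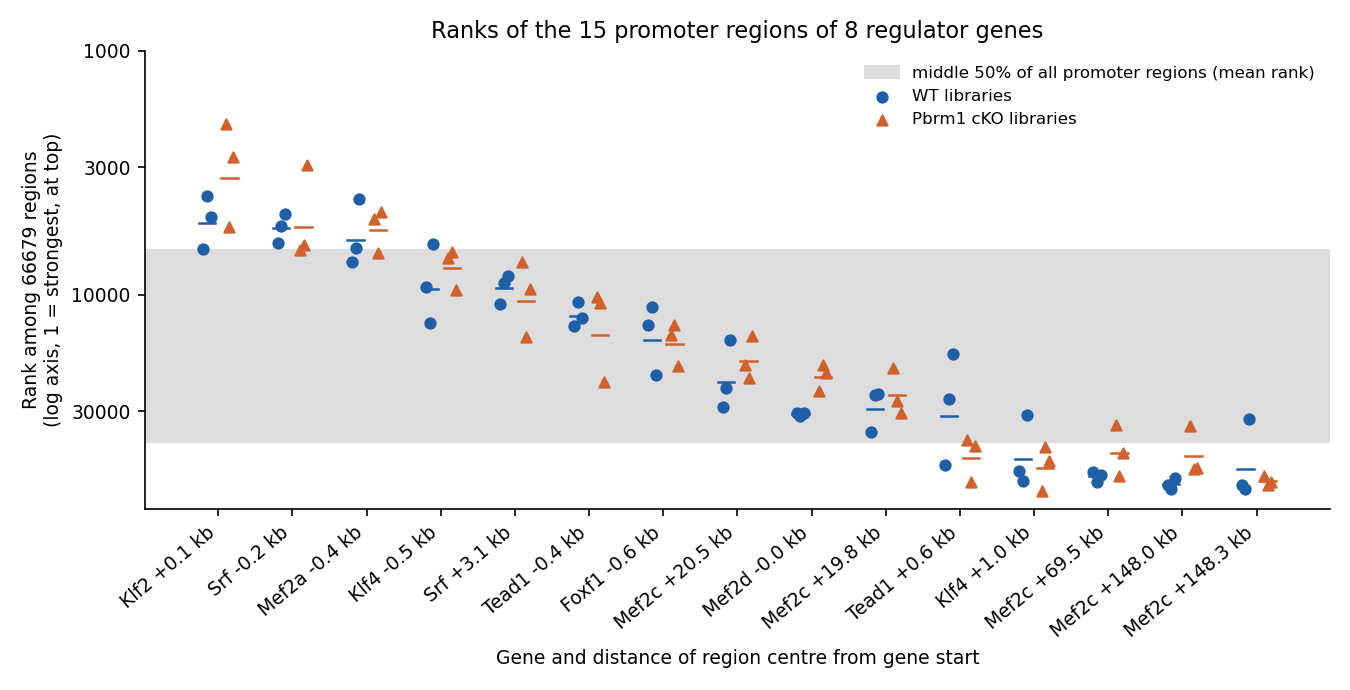
Ranks of the 15 promoter regions in the 3 WT (circles) and 3 Pbrm1 cKO (triangles) libraries, on a log axis with rank 1 at the top, with short lines for group means and a grey band for the middle 50% of all promoter regions by mean rank. The Klf2, Srf and Mef2a promoters lie near the top, and 3 of the 5 Mef2c promoter regions lie lowest.

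Srf had one of the strongest promoters of the set. The region over the gene start, 864 bp at chr17:46555978-46556841 (GRCm38), ranked 6107, 5214 and 4685 in WT and 6563, 6246 and 2934 in Pbrm1 cKO. It held 67 to 136 tags at its summit per library, and the genotypes overlapped, with a difference of 0.10 ± 0.42 (SE) and an adjusted p of 0.94 in limma. A second promoter region, at a start 3.1 kb inside the gene, ranked 8366 to 10887 in WT and 7354 to 14930 in Pbrm1 cKO. The sequence around the first start is shown because it holds sites for SRF itself. It is the RefSeq promoter, 250 bases before to 50 after the start in the direction of transcription, with matches to the CArG box in capitals.

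Srf promoter (GRCm38.p6), chr17:46556113-46556412, minus strand: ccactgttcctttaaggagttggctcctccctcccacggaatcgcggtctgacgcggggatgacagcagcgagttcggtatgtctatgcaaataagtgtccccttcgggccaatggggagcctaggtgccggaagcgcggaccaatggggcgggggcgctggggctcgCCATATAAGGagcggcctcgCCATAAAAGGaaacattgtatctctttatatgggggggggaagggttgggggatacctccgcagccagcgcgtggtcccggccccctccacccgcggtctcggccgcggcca

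The 2 matches lie upstream of the start. A CArG box on either strand was present in 1.63% of 32851 RefSeq promoters of the same length, and Srf was the only member among 9 records of 7 of the genes. No 300 bp window centred on a region of the set held a CArG box, against 1.62% of all regions. The boxes of the Srf promoter lie outside the 300 bases at the centre of its region.

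Distal regions around Srf moved in both directions without passing the threshold. The best-ranked one lay 18.4 kb upstream, over an exon of Ptk7. It ranked 14534, 17574 and 19682 in WT and 9692, 10678 and 10230 in Pbrm1 cKO. Every Pbrm1 cKO rank was nearer the top, and the difference was 0.75 ± 0.33 (adjusted p = 0.28, limma). A region 46.1 kb upstream, in an intron of the noncoding gene Gm26904, went the other way. Its ranks were 44152, 39756 and 22052 in WT and 59843, 58700 and 57312 in Pbrm1 cKO, from 17 to 19 tags in WT and 12 to 13 in Pbrm1 cKO. The difference of −0.79 ± 0.25 had an adjusted p of 0.15, and without WT library 3 it was −0.48. The 300 bases around the summit of this region held a MEF2 site and CATTCC, the TEAD word, both in capitals.

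Srf 46.1 kb upstream (GRCm38), chr17:46602222-46602521, plus strand: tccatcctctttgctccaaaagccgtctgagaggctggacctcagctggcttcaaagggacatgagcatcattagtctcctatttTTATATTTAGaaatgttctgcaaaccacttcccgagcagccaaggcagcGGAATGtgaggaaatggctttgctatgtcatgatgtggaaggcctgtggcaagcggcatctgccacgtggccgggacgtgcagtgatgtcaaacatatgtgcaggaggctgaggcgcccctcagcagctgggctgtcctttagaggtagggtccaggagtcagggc

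Myocd had no merged region at its promoter. The relaxed lists had weak entries within 1 kb of its start in all 6 libraries, with 12, 14 and 9 tags at the summit in WT and 12, 8 and 11 in Pbrm1 cKO. Placed among the merged regions, these entries would have ranked 60804, 57598 and 53421 in WT and 63482, 64870 and 61670 in Pbrm1 cKO. The WT placements were all nearer the top, but the deposited −log10 p-values overlapped. They were 7.86, 9.42 and 5.36 in WT and 7.76, 5.54 and 6.79 in Pbrm1 cKO. The lowest value, in WT library 3, which had the lowest median of tags, was the one placed nearest the top. The part of library depth or enrichment in these placements was not tested. The entries belonged to no IDR list and entered no test. Within the gene, an intronic region 6.3 kb from the start ranked 61327, 54230 and 61175 in WT and 42284, 41413 and 51795 in Pbrm1 cKO. It was in the Pbrm1 cKO list only, and so entered through the genotype where it ranked nearer the top. Its tags were 6 to 13 in WT and 14 to 20 in Pbrm1 cKO, and its difference was 0.39 ± 0.16 (adjusted p = 0.26, limma). The best-ranked distal region of the window was 141.1 kb into the transcribed direction, past the end of Myocd and in an intron of its neighbour Arhgap44, with ranks from 6224 to 15138. The Arhgap44 promoter, in the same window, ranked 21045, 28167 and 11102 in WT and 8867, 11254 and 10894 in Pbrm1 cKO. Its difference of 0.87 ± 0.37 was the third largest positive one among the 101 regions with an entry in all 6 libraries, with an adjusted p of 0.27. Of the 9 distal regions in the Myocd window 7 had negative differences, and the median over the 9 was −0.27. None of the 9 passed the threshold.

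The Mef2a promoter was strong in all 6 libraries. The region at chr7:67372734-67373830 ranked 7313, 6450 and 4040 in WT and 4878, 6751 and 4589 in Pbrm1 cKO, a difference of 0.11 ± 0.40. Its window held 11 regions, 10 of them in both genotype lists, the largest share of the 10 genes. The strongest distal region, 18.1 kb upstream and intergenic, ranked 10254, 15218 and 21272 in WT and 14904, 24678 and 20674 in Pbrm1 cKO. A region in a Mef2a intron 89.3 kb from the start, at chr7:67283249-67283930, stood apart from these. It ranked 40544, 39508 and 39244 in WT and 22500, 14268 and 20742 in Pbrm1 cKO. The summit tags were 20, 18 and 11 in WT and 38, 42 and 35 in Pbrm1 cKO. The genotypes did not overlap, and the difference of 1.08 ± 0.32 had an adjusted p of 0.12 in limma. The region is shown as the second largest positive difference of the set, and none of the motif letters searched occurred in its 300 bases.

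Mef2a +89.3 kb (GRCm38), chr7:67283567-67283866, plus strand: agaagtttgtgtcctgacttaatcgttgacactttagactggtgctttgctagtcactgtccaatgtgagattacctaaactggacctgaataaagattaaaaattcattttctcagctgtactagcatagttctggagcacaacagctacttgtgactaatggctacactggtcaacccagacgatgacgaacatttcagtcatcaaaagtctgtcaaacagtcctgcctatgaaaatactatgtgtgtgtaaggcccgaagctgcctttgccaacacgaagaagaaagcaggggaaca

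Mef2c was open at starts inside the gene. No library had an entry within 1 kb of its first annotated start, and its 5 promoter regions lay at later starts. The pair 19.8 and 20.5 kb downstream was in both lists, and the stronger of them ranked 28798, 24164 and 15288 in WT and 19318, 21909 and 14700 in Pbrm1 cKO. The region 69.5 kb downstream ranked 53206 to 58451 in WT and 34152 to 54942 in Pbrm1 cKO. The neighbours 148.0 and 148.3 kb downstream were in the Pbrm1 cKO list only, with differences of 0.41 ± 0.18 and −0.22 ± 0.20, and shared 1 relaxed entry in WT library 1, where both ranked 60294. The first of them was the only one of the 15 promoter regions with an unadjusted p under 0.05, against 12.4% of all promoter regions. The best-ranked distal region was intronic, 100.0 kb downstream, with ranks from 8246 to 12719. Its difference between genotypes was 0.16 ± 0.35.

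A weaker intronic region, 97.9 kb downstream at chr13:83601845-83602032, was in the Pbrm1 cKO list only and differed more. It thus entered the set through the genotype in which it ranked nearer the top. It had no entry in WT library 1 and ranked 65458 and 57952 in WT libraries 2 and 3, from 9 and 8 tags. In Pbrm1 cKO it ranked 45328, 40358 and 37003, from 27, 26 and 28 tags. The difference was 0.63 ± 0.17 with an adjusted p of 0.10. When the ranks were turned into normal scores, quantiles of a normal distribution that give weak regions more weight, the difference was 1.63 ± 0.41 normal score units and its adjusted p was 0.033 in limma. In the opposite direction, the intronic region 62.3 kb downstream, in the WT list only, ranked 48267, 34830 and 19098 in WT and 63012, 60490 and 41358 in Pbrm1 cKO. The groups overlapped there, and the adjusted p was 0.24 in limma. That region had entered through WT, where it ranked nearer the top. The whole 188 bases of the region with normal scores past the threshold are shown, with none of the searched motifs.

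Mef2c +97.9 kb (GRCm38), chr13:83601845-83602032, plus strand: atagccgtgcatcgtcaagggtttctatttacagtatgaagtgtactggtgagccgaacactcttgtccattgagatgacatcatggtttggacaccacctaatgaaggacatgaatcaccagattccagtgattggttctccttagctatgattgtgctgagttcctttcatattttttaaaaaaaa

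Mef2d had a single promoter region, 952 bp over its start. It ranked 30564, 31448 and 30592 in WT and 24818, 19326 and 20807 in Pbrm1 cKO, from 32 to 63 tags in WT and 77 to 78 in Pbrm1 cKO. The genotypes did not overlap, but the difference of 0.52 ± 0.31 had an adjusted p of 0.43 and was 0.0094 when regions were ranked by fold enrichment. The strongest distal region, 14.1 kb upstream, ranked 13693 to 32202 in WT and 12684 to 16743 in Pbrm1 cKO. The distal region with the smallest p in its window, 3.2 kb upstream and in the WT list only, had a difference of −0.31 ± 0.22.

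Foxf1 had a region at its promoter and Nkx2-3 had none. The Foxf1 promoter region, which also lies within 1 kb of a start of the noncoding gene Fendrr, ranked 13267, 11219 and 21242 in WT and 14640, 13332 and 19646 in Pbrm1 cKO. Of the distal regions in its window, the strongest lay 8.4 kb downstream over an exon of Mthfsd, with ranks from 14978 to 25961. A region 19.9 kb downstream, in the Pbrm1 cKO list only, ranked 60323, 54620 and 54026 in WT and 33025, 48834 and 37069 in Pbrm1 cKO. The ranks did not overlap, and the difference was 0.52 ± 0.20 with an adjusted p of 0.22 in limma. Being in that list only, the region had entered the set through the genotype where it ranked nearer the top. Nkx2-3 had no merged region at its start. Its relaxed entries there held 7 tags in WT libraries 1 and 2 and 8 tags in Pbrm1 cKO library 2, and the other 3 libraries had none. All 6 regions in the Nkx2-3 window were distal, and 2 of them were in both lists. The best lay 18.8 kb downstream and ranked 15708, 17072 and 12848 in WT and 11425, 8910 and 13424 in Pbrm1 cKO. The one with the smallest p lay 33.1 kb upstream, in the Pbrm1 cKO list only, and its difference was 0.38 ± 0.16 (adjusted p = 0.26, limma). That region, too, had entered through the genotype where its mean rank was nearer the top.

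Klf2 had the best mean rank of the 15 promoter regions. The region of 1240 bp at chr8:72318538-72319777 ranked 6482, 3942 and 4818 in WT and 2001, 5272 and 2730 in Pbrm1 cKO. The summit held 97, 100 and 63 tags in WT and 143, 107 and 132 in Pbrm1 cKO. The ranks overlapped, and the difference of 0.70 ± 0.46 had an adjusted p of 0.48 and dropped to 0.10 when regions were ranked by fold enrichment. The RefSeq promoter of Klf2 is shown because it holds a MEF2 site, in capitals, which 3.19% of RefSeq promoters hold.

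Klf2 promoter (GRCm38.p6), chr8:72318812-72319111, plus strand: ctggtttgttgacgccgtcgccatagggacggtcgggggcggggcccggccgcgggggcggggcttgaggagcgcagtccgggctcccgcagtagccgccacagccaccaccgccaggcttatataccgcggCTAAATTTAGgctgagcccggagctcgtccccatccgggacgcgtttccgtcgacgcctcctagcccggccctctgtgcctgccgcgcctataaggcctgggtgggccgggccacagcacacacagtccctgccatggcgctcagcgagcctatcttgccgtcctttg

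The Mef2a promoter record also held a MEF2 site. Away from its promoter Klf2 had 6 distal regions. The best, 15.6 kb upstream, ranked 8727 to 17464 in WT and 11661 to 16488 in Pbrm1 cKO. The distal region with the smallest p, 3.6 kb downstream, had no entry in WT library 3 and a difference of 0.31 ± 0.20.

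Klf4 combined a strong promoter with the strongest distal region of all 10 genes. The promoter region, 1140 bp at chr4:55532389-55533528, ranked 9241, 13019 and 6211 in WT and 7078, 6677 and 9510 in Pbrm1 cKO, a difference of 0.24 ± 0.38. A second one, 155 bp long, 1.0 kb inside the gene and in the WT list only, ranked 30913 to 57907 in WT and 41916 to 63375 in Pbrm1 cKO. The distal region 17.5 kb downstream, intergenic, ranked 2223, 4544 and 2804 in WT and 1418, 2564 and 3039 in Pbrm1 cKO. Its mean rank lay within the top 3.61% of all regions, above the Klf4 promoter in every library. The ranks overlapped and the difference was 0.45 ± 0.50. The 300 bases at its summit follow, with CCACACCC, a Krüppel-like factor word, and CATTCC in capitals.

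Klf4 +17.5 kb (GRCm38), chr4:55514738-55515037, plus strand: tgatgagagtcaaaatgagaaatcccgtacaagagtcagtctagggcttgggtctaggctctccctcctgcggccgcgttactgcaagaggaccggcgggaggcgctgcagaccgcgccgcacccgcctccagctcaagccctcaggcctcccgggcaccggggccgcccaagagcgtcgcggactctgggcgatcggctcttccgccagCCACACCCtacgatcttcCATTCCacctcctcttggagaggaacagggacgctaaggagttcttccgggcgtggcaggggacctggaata

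Of the 10 regions around Klf4, 7 held CATTCC in their central 300 bases, against 20.4% of all regions. This share is given as the highest of any gene and motif searched. The word was in 5 of 10 regions at Myocd, 0 of 7 at Foxf1 and 19.6% of the whole set. The Klf4 windows 51.8 and 52.1 kb downstream, both among the 7, overlap and may share a match. A weak region 10.5 kb upstream was in the Pbrm1 cKO list only and had no entry in WT library 3. It ranked 65638 and 65424 in the other WT libraries, from 8 tags each. It ranked 60872, 48622 and 48678 in Pbrm1 cKO, from 16, 18 and 18 tags. Its difference of 0.33 ± 0.12 had an adjusted p of 0.20 in limma. The region had entered the set through the genotype where it ranked nearer the top.

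Tead1 had the largest window and 25 of the 112 regions. Its relaxed lists held 71 to 81 distinct intervals per library in the window, and 36 to 45 of them lay outside the merged regions. The region at the gene start ranked 13463, 10713 and 12468 in WT and 10208, 10842 and 22746 in Pbrm1 cKO, a difference of −0.16 ± 0.37. A second one 0.6 kb into the gene was in the WT list only and ranked 49592, 26798 and 17404 in WT and 39125, 58533 and 41744 in Pbrm1 cKO. The groups overlapped, and the difference was −0.68 ± 0.35 (adjusted p = 0.35, limma). The best-ranked distal region, 18.0 kb downstream, ranked 11949, 9184 and 12392 in WT and 4954, 8595 and 12617 in Pbrm1 cKO.

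**Figure D2:**
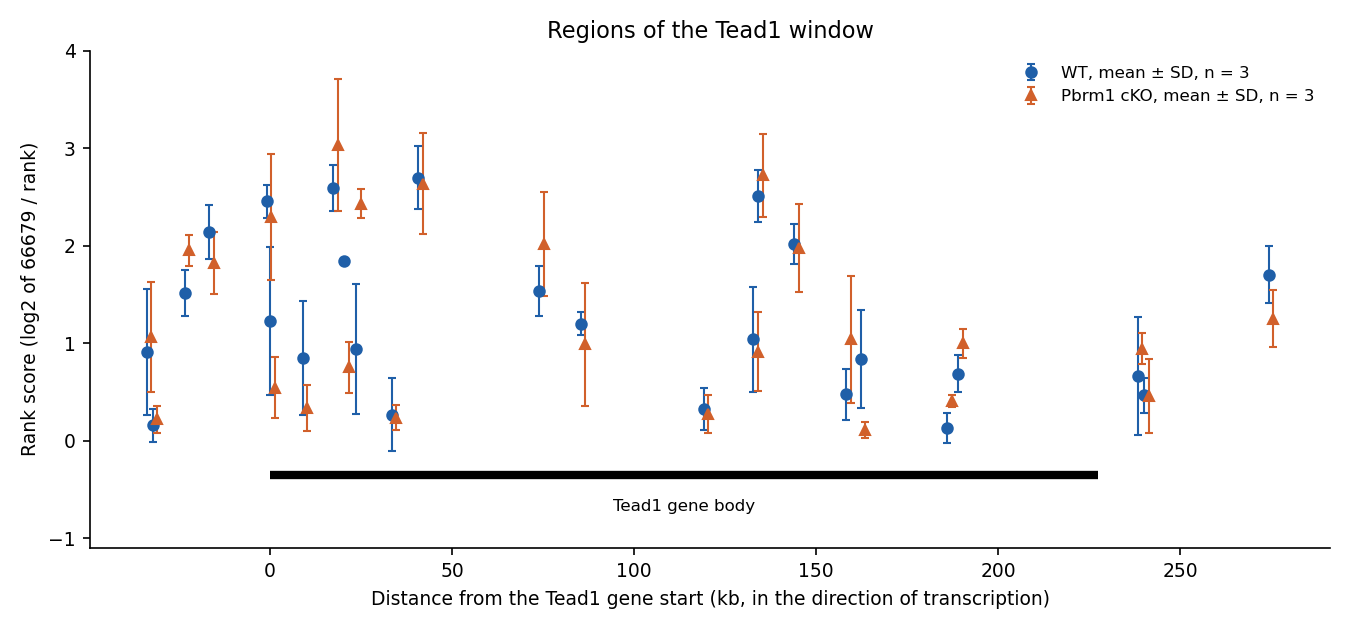
Mean rank score with SD (n = 3 libraries per genotype) of the 25 regions in the Tead1 window, against distance from the gene start in kb, with WT as circles and Pbrm1 cKO as triangles. Between 18.0 and 24.3 kb 3 neighbouring intronic regions differ in direction, the middle one lower and the last one higher in Pbrm1 cKO.

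The next 2 intronic regions of Tead1 carried the largest negative and the largest positive difference of the set among regions with an entry in all 6 libraries. The region 21.0 kb downstream, chr7:112700084-112700513, ranked 18278, 19085 and 18400 in WT and 33759, 48176 and 38222 in Pbrm1 cKO. Its tags were 51, 48 and 27 in WT and 42, 28 and 32 in Pbrm1 cKO. All WT ranks were nearer the top, and the score was 1.84 ± 0.03 (SD, n = 3) in WT and 0.75 ± 0.26 in Pbrm1 cKO. The difference of −1.09 ± 0.31 had an adjusted p of 0.12 with log2 ranks and of 0.049 with normal scores in limma. The second call was lost with the replicate block and with any 1 library left out. The 300 bases at the summit held CATTCC, in capitals, and ended in a CA repeat.

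Tead1 +21.0 kb (GRCm38), chr7:112700244-112700543, plus strand: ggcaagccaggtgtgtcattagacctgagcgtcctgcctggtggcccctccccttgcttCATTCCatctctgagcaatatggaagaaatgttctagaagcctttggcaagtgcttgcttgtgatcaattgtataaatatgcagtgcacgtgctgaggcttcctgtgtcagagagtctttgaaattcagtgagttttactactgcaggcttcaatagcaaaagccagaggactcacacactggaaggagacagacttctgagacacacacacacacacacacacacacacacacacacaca

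The region 24.3 kb downstream, chr7:112703492-112703721, ranked 20361, 44894 and 46022 in WT and 13691, 11112 and 12456 in Pbrm1 cKO. Its tags were 39, 22 and 12 in WT and 55, 50 and 50 in Pbrm1 cKO. The score was 0.94 ± 0.67 in WT and 2.43 ± 0.15 in Pbrm1 cKO, so WT library 1 lay closer to the Pbrm1 cKO libraries than to the other 2 WT libraries. The difference of 1.49 ± 0.36 had an adjusted p of 0.089 with log2 ranks and of 0.019 with normal scores in limma. In its 230 bases, 79.1% of positions are masked as repeats in the reference, and masking covered at least 50% of the sequence in 2 of the 112 regions and in 1.64% of all regions. Reads in repeats can map to other copies, and the part of this in the difference was not tested. The whole region is shown with 2 matches to TGACTCA, the AP-1 word, in capitals as read on the minus strand.

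Tead1 +24.3 kb (GRCm38), chr7:112703492-112703721, plus strand: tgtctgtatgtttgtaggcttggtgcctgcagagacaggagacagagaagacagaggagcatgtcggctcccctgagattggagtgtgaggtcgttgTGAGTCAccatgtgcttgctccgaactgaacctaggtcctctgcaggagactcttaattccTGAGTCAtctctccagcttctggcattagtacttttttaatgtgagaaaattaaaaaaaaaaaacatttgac

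Further into the gene, 162.8 kb from the start and touching an exon, a region in the WT list only ranked 27898, 34048 and 54732 in WT and 63477, 64228 and 58060 in Pbrm1 cKO. The ranks did not overlap, and the difference was −0.73 ± 0.22 (adjusted p = 0.14, limma). The region had entered the set through WT, the genotype in which it ranked nearer the top, which favours such a difference.

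**Figure D3:**
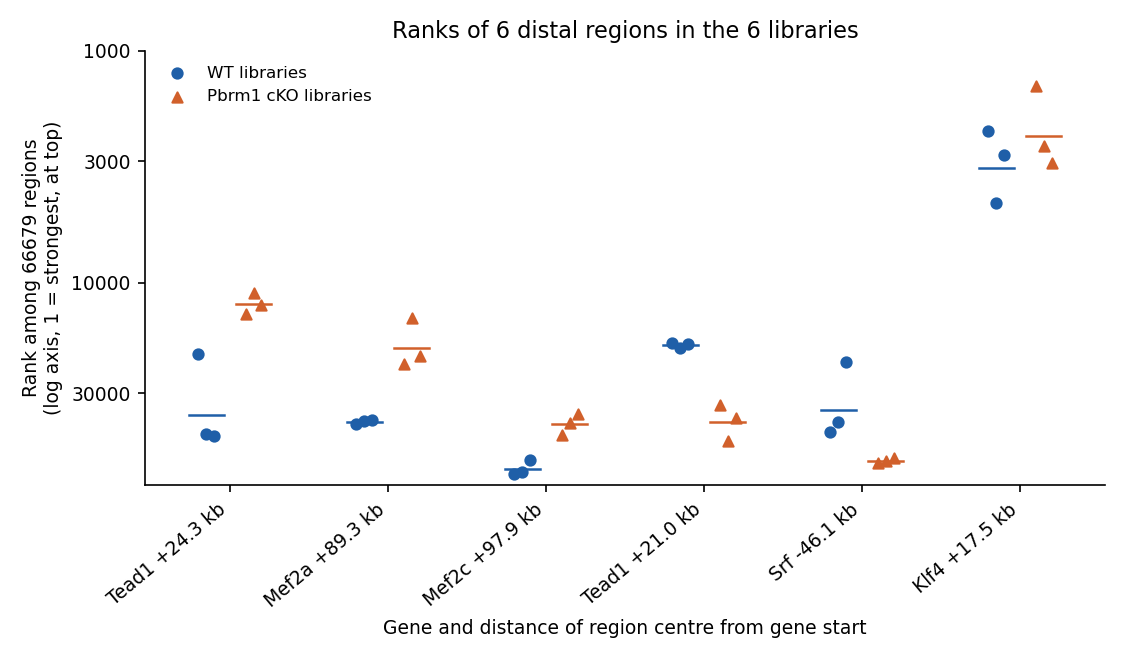
Ranks of 6 distal regions in the 3 WT (circles) and 3 Pbrm1 cKO (triangles) libraries on a log axis with rank 1 at the top, with short lines for group means. Of these regions, 5 were chosen for the largest differences or a call with normal scores, which favours genotypes that do not overlap. At those 5 the genotypes do not overlap, as at 21.4% of all regions. At the Klf4 region, chosen as the best-ranked distal one, they do.

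Over all 112 regions, 0 passed an adjusted p of 0.05 in limma on log2 ranks. Of all 66679 regions, 0.039% were called higher and 0.03% lower in Pbrm1 cKO. An unadjusted p under 0.05 was reached by 18 of the 112, or 16.1%, against a background of 15.9%. Of the 18, 12 were higher in Pbrm1 cKO (66.7%, against 47.8% of all regions with such a p). Most of those 12 were in the Pbrm1 cKO list only and so entered the set through the genotype where they were higher. Of the 112 regions, 26 were in the Pbrm1 cKO list only and 12 in the WT list only. Of the lower ones among the 18, Srf +9.9 kb, Mef2c +62.3 kb and Tead1 +162.8 kb were in the WT list only. The split of the 18 by direction depends on this filter. The genotypes' ranks did not overlap at 20 of the 112, or 17.9%, against 21.4% of all regions. With normal scores, 2 regions of the set were higher (Tead1 +24.3 kb and Mef2c +97.9 kb) and 1 was lower (Tead1 +21.0 kb), where 0.993% of all regions were called higher and 1.33% lower. These shares of the set are read beside that background and are counts of a few regions. Leaving out WT library 2 or any 1 of the Pbrm1 cKO libraries left 0 of the 3 past the threshold. Without WT library 1 only Tead1 +24.3 kb passed, and without WT library 3 it passed together with Mef2c +97.9 kb, the Arhgap44 promoter (higher) and the Tead1 region 162.8 kb downstream (lower).

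The median difference was 0.11 over the 15 promoters, against −0.041 over all promoter regions, and 0.074 over the 86 distal regions, against 0.019 over all distal regions. Over the 76 distal regions with an entry in all 6 libraries it was 0.017. The member promoters' median was −0.043 when regions were ranked by fold enrichment and 0.0018 without WT library 1. Positive differences were found at 61 of the 112 regions (54.5%, against 50.1% of all regions) and negative ones at 51. Of the 112, 26 entered through the Pbrm1 cKO list only and 12 through the WT list only. The part of this in the signs and medians was not tested. Beyond the 5th to 95th percentile of all regions, from −0.69 to 0.70, lay 5 regions above and 4 below.

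**Figure D4:**
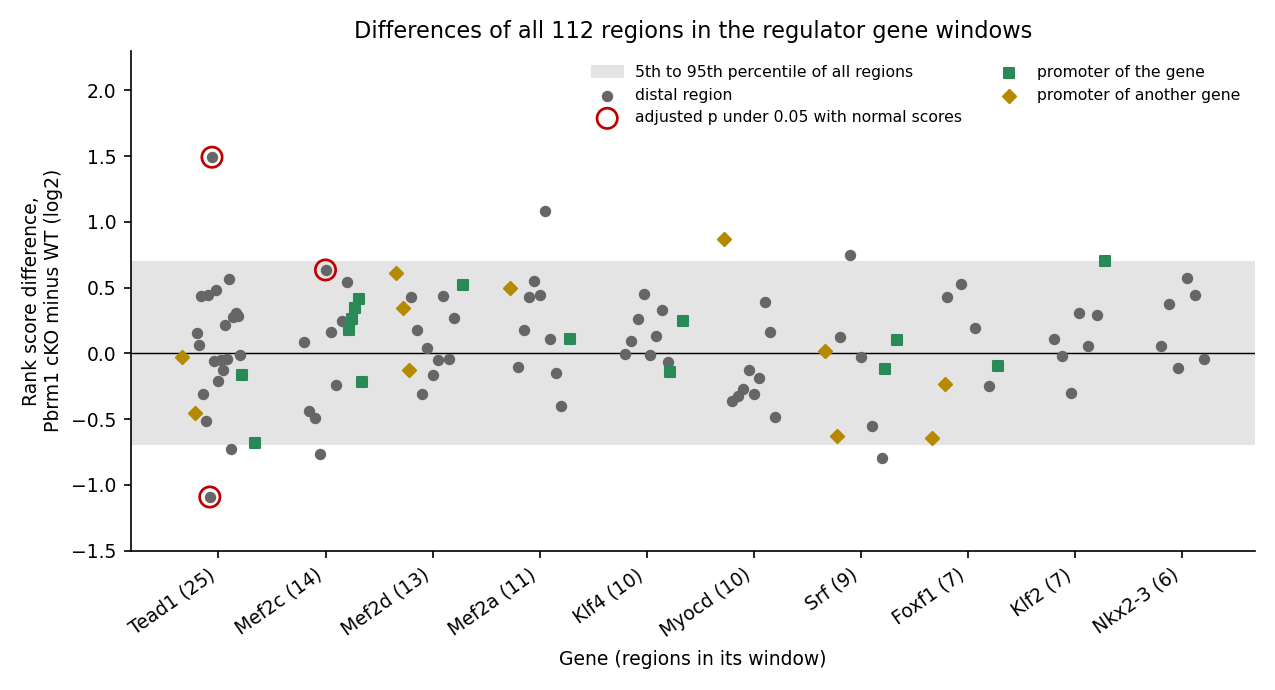
Rank score difference, Pbrm1 cKO minus WT, of each of the 112 regions by gene, for distal regions, promoters of the gene and promoters of other genes, with the 5th to 95th percentile of all regions in grey. Red rings mark the 3 regions with an adjusted p under 0.05 on normal scores, and the 2 farthest from 0 are in Tead1.

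The genotype lists gave a second view. In the set, 74 regions were in both lists, 12 in the WT list only and 26 in the Pbrm1 cKO list only. As shares these were 66.1%, 10.7% and 23.2%, against 69.2%, 13.4% and 17.4% of all regions. Tead1 and Mef2d held 3 WT-only regions each, and Mef2c, Klf4 and Tead1 held 4 Pbrm1 cKO-only regions each. When each list was limited to the stronger 50% of its peaks by p-value, 9 regions were WT only and 9 were Pbrm1 cKO only. Each list pools the libraries of 1 genotype, so this comparison has no replicates and no test.

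**Figure D5:**
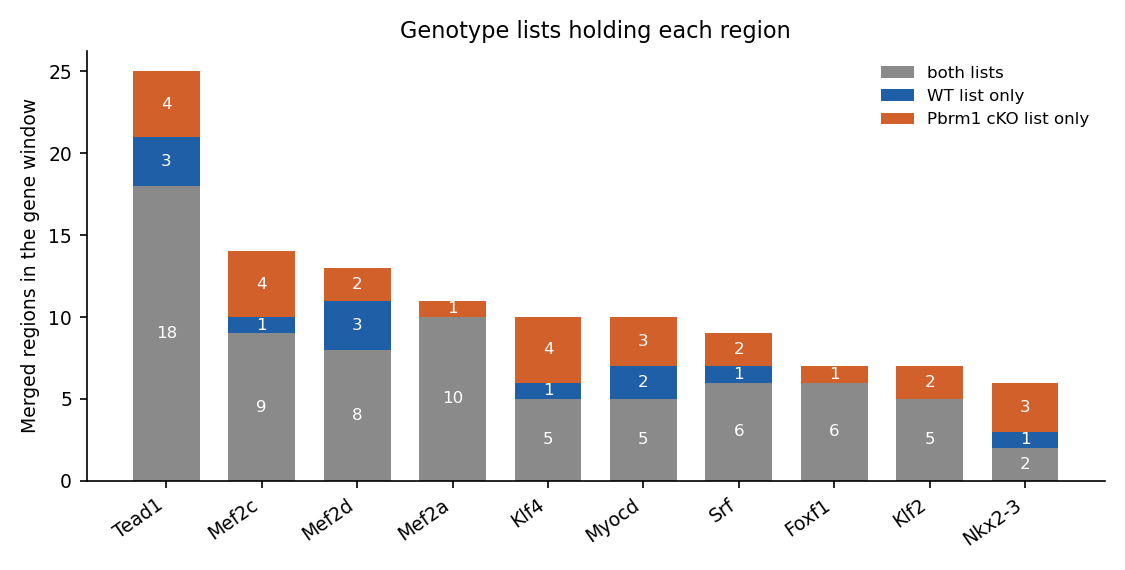
Number of merged regions in each gene's window, stacked by the genotype lists that hold them. Tead1 has 25 regions, 18 of them in both lists, and Nkx2-3 has 6, with 2 in both lists.

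Genes that work with these regulators were looked at through their promoters. Of 25 such genes 23 had a promoter region, with 40 regions in all. None passed the adjusted threshold on log2 ranks, 5 of the 40 had an unadjusted p under 0.05, against 12.4% of all promoter regions, and the median difference was −0.024. The smallest adjusted p was 0.14. All 8 SRF cofactors had a region. Of their 12 regions, 8 had positive and 4 negative differences, with a median of 0.17. Csrp2, a LIM protein of smooth muscle, had the largest difference among the best-ranked regions of the 25 genes. The better-ranked of its 2 promoter regions ranked 790, 945 and 866 in WT and 352, 109 and 135 in Pbrm1 cKO. The ranks did not overlap, and the difference was 2.32 ± 0.92 (adjusted p = 0.23, limma). All 7 TEAD paralogs and cofactors had a region. Of their 13 regions, 4 had positive and 9 negative differences, with a median of −0.26. The Tead4 promoter ranked 11050, 11626 and 6534 in WT and 16014, 14952 and 23284 in Pbrm1 cKO. Its difference of −0.91 ± 0.36 (adjusted p = 0.23, limma) was the largest among the best-ranked regions of that list. The best-ranked Vgll4 promoter region, also without overlap, went the other way, with a difference of 0.44 ± 0.34. All 5 genes of the MEF2 list, Mef2b and the class IIa histone deacetylases, had a region, with a median difference of 0.078. Of the FOXF, KLF and NKX relatives, Klf5, Klf6 and Klf15 had one, and Foxf2 and Nkx2-5 had none.

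The median GC content of the central 300 bases was 61.3% at the 15 promoters and 61% at all promoter regions, and 49.8% at the distal regions against 48% at all distal ones. Counting both strands, TGACTCA was found in 25.9% of the 112 windows against 27% of all, and CATTCC in 19.6% against 20.4%. The forkhead word TGTTTAC was found in 5.36% against 3.62%, CCACACCC in 3.57% against 3.12%, the NKX2 words CACTTGA or CACTTAA in 4.46% against 6.39%, and the MEF2 site in 3.57% against 3.07%. By class, TGACTCA was found in 29.1% of the 86 distal windows against 34.9% of all distal ones, and in 3 of the 15 promoters (20%) against 10.5% of all promoter regions. The NKX2 words were found in 2.33% against 7.55% of distal windows and in 3 of the 15 promoters (20%) against 3.96%. No matches of different motifs overlapped in the 112 windows. A match is a description of letters and not a bound site.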

How the data were processed

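ATAC-seq peaks of 3 WT and 3 Pbrm1 cKO libraries were used. The labels name cutadapt, Bowtie2 and MACS2 (versions not given in the sources used here) and the GRCm38.p5 genome. The authors deposited, per library, a relaxed narrowPeak list (p 0.01, up to 300000 entries) and, per genotype, a conservative IDR list, with fold ratio, −log10 p-value, −log10 q-value and a score per peak. The deposited −log10 p-value ranked the regions, the deposited fold was an alternative, and the score was not used. IDR peaks overlapping by at least 1 bp were merged. Windows and promoters used GENCODE M21. Rank scores were tested with limma 3.58.1 (R 4.3.3, moderated, trend, Benjamini-Hochberg over 66679 regions) after a check on simulated ranks. Tags were the whole numbers that give both deposited values back within 0.001, found for 657 of 657 entries. Of the 112 regions 12 shared their best entry with a neighbour in some library. Promoter sequences are from RefSeq (7 of 10 genes). Motifs were searched in 300 bp. The text names every promoter region, each gene's best-ranked and smallest-p distal region, regions called on either scale and the 5 largest differences in each direction. The members and lists were chosen with earlier results of these data known, and 1 gene of the partner list is not reported here. P-values and tags cover no sampling of animals beyond these libraries, and PCR copies are not independent molecules.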

Additional observations from a re-analysis of the deposited data

How the results depend on the processing

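On log2 ranks 46 regions of the series were called (26 higher, 20 lower in Pbrm1 cKO). There were 1552 with normal scores (662 higher, 890 lower), 7 ranked by fold, 274 by position among all intervals of a library (179 higher, 95 lower) and 130 with the replicate block. Leaving out 1 library gave 2 to 25. No region of the 10 genes was called under any of these, with the block or with 1 library left out (0 to 0), except 3 with normal scores. In fits added after seeing the data, normal scores with 1 library left out called 151 to 1773 regions of the series and 0 to 4 of the set, and with the replicate block 2 of the set. Deviations of the rank scores from their genotype means had correlations of −0.0028, −0.055 and 0.0093 between libraries numbered 1, 2 and 3. These values do not show whether same-numbered libraries were prepared together. Regions only in the Pbrm1 cKO list fell from 26 to 9 in the stronger 50% of each list and to 13 with 10 kb windows, where fewer regions were counted. Those only in the WT list numbered 9 to 17. Medians without 1 library ran from 0.0018 to 0.27 at promoters and from 0.052 to 0.12 at distal regions, where entries in all 6 libraries gave 0.017. Of 39 named regions 30 kept their sign in every fit. The sign changed when ranked by fold at Mef2c +100.0 kb (−0.30) and at the promoters of Srf (−0.30), Klf4 (−0.16), Mef2a (−0.053) and Foxf1 (0.028). Without 1 library it changed at Mef2c +148.3 kb (−0.39 to 0.088) and at the promoters of Srf (−0.27 to 0.31, and −0.35 to 0.16 at the inner start), Klf4 (−0.016 to 0.52, and −0.32 to 0.14 inside the gene), Mef2a (−0.061 to 0.37), Tead1 (−0.37 to 0.21) and Foxf1 (−0.36 to 0.10). The cause was not tested. An entry was missing in some library at 11 of the 112 regions.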
